A study of Homo sapiens with 4 samples.

Results

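The genes described here are the core autophagy machinery and the lysosomal membrane proteins and factors that work with it, 42 genes chosen by name. All 42 were found among the 58243 genes listed in both RNA-seq tables, and they belong to the 19658 protein-coding genes analysed. HK2 cells are a human kidney line, immortalized and derived from the proximal tubule. Every sample had received 50 μM FG-4592, an inhibitor of the PHD enzymes whose activity leads to loss of HIFα, for 6 h by the study's methods. There were 2 RNA-seq libraries and 2 HIF1α ChIP-seq libraries, numbered 1 and 2 within each assay. Libraries of untreated cells were not used here. All values are therefore levels and binding under FG-4592, with no fold change on treatment. Nothing in the sources says that the replicates came from separate cultures, and the SD of 2 libraries may be technical.

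Autophagy carries cytoplasm and organelles to the lysosome inside a double-membrane vesicle, the autophagosome. A kinase complex around ULK1 starts the process, a lipid kinase complex around BECN1 and PIK3C3 marks the site, and ubiquitin-like conjugation attaches proteins of the ATG8 family to the growing membrane. Receptors such as SQSTM1 tie cargo to ATG8 proteins, the lysosome with LAMP1 and LAMP2 in its membrane takes up the vesicle, and TFEB and TFE3 activate many genes of the pathway. Proximal tubule cells are known for active autophagy, and the mitophagy receptors BNIP3 and BNIP3L are known HIF1α targets.

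The identity of the cells was read from marker genes first. Levels are FPKM, a measure scaled to transcript length and library size, summed over the transcripts of each gene. Of 13 proximal tubule markers, 2 reached 1 FPKM in both libraries, the enzyme gene *GGT1* at 62.3 and 58.5 FPKM and the glucose transporter *SLC5A2* at 2.59 and 1.70. The endocytic receptor *LRP2*, the transporters *SLC5A12*, *SLC22A6* and *SLC22A8* and the factor *HNF4A* were listed at 0 in both. Most epithelial and renal lineage markers were present, with 6 of 7 at 1 FPKM or more, among them *KRT8* at 166 and 162 and *PAX8* at 121 and 114. The exception was the epithelial cadherin gene *CDH1*, at 0.211 and 0.379. Of 11 matched markers of other kidney cells 6 were listed at 0, and *COL1A1* (38.7 in each library) and *CD68* (33.6 and 31.5) were the 2 above 1 FPKM. The cells are therefore called HK2 cells below, since most markers of mature proximal tubule were at or near 0.

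Of the 42 autophagy genes, 39 (92.9%) reached 1 FPKM in both libraries, against 58.8% of protein-coding genes. The 3 below were *ATG9B*, *MAP1LC3A* and *MAP1LC3C*. The median of the 42 was 12.7 FPKM, at percentile 73.6 of the median member among protein-coding genes. Among genes with a mean of at least 1 FPKM, called expressed here, the median was 14.7 for the 39 members and 10.8 for all 11726 genes. The expressed members were spread over the whole range, with 23 of the 39 above that median of 10.8 and *TFEB*, the lowest, at rank 11089.

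The libraries gave close values for these genes, as they did for expressed genes at large. With a pseudocount of 1, none of the 39 was more than 2-fold apart between libraries, which is near the 1.01% of expressed protein-coding genes. The log2 ratio of replicate 2 to replicate 1 ran from -0.49 (*GABARAPL1*) to 0.45 (*ATG12*), and the median absolute ratio was 0.09 for the members and 0.12 for all expressed genes. In the order of mean level, 20 of 41 pairs of neighbours had separate values in the libraries and 21 overlapped, so only wide steps in the order can be read. Read counts are not in the tables, and depth was taken as bases of coverage, 4442 and 4202 Mb over each library and 15.1 and 14.0 Mb over the members. An expressed member rested on 0.0183 to 2.35 Mb in a library.

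**Figure D1:**
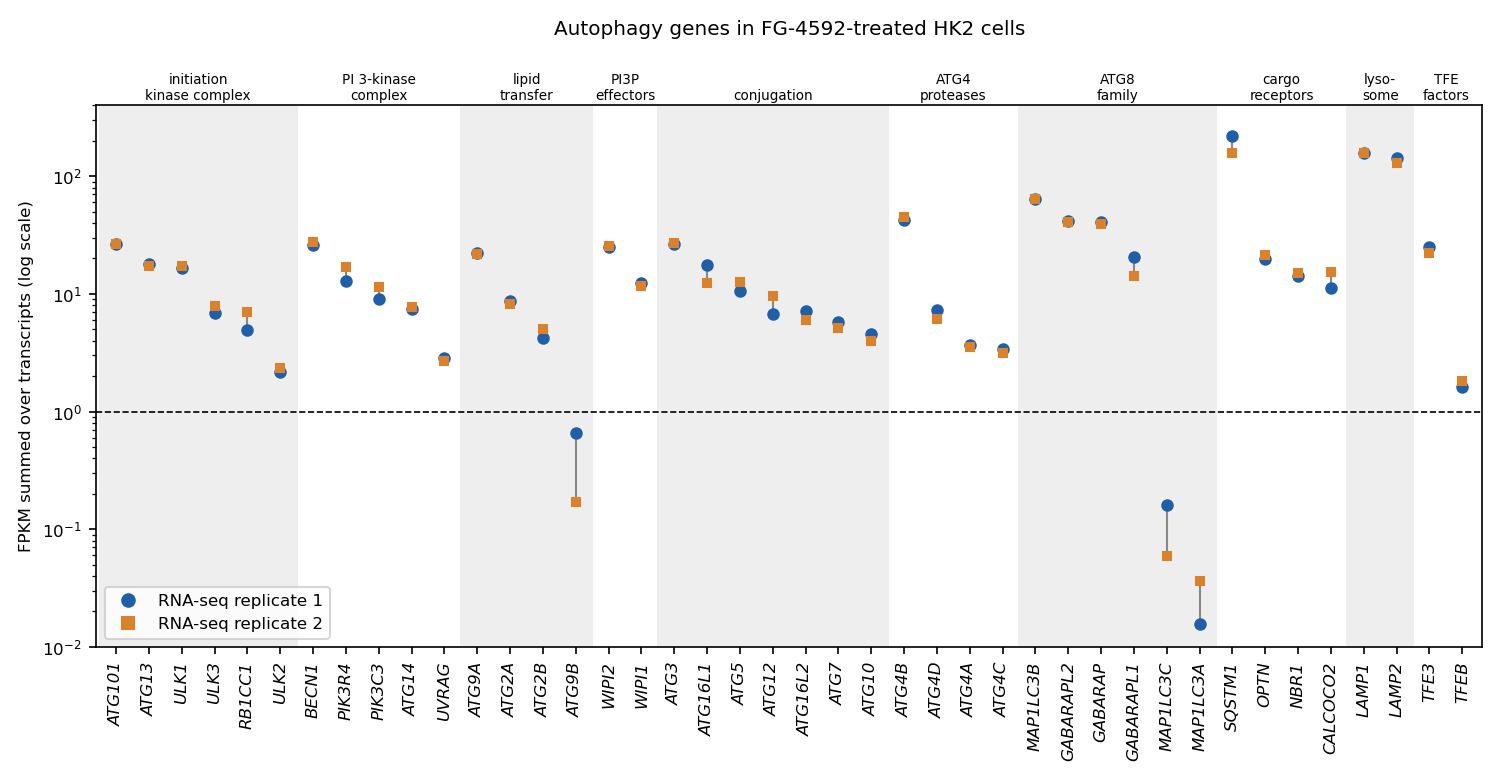
FPKM of the 42 autophagy genes in each RNA-seq library of FG-4592-treated HK2 cells, on a log axis, grouped by role and ordered by mean level. Circles are replicate 1, squares replicate 2, and the dashed line marks 1 FPKM. *SQSTM1*, *LAMP1* and *LAMP2* stand highest, and *ATG9B*, *MAP1LC3C* and *MAP1LC3A* lie under the line in both libraries.

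The ULK1 complex starts autophagosome formation and joins the kinases to the scaffold RB1CC1 and to ATG13 and ATG101. All 6 of its genes listed here were expressed. *ATG101*, which stabilizes ATG13, was highest at 26.3 and 26.8 FPKM, followed by *ATG13* at 18.1 and 17.3 and *ULK1* at 16.6 and 17.2. The kinase genes differed widely among themselves. *ULK1* (16.9 ± 0.427, SD, n = 2) was above *ULK3* (7.32 ± 0.701), and *ULK2* was lowest at 2.26 ± 0.119, with no overlap between the libraries of any 2 of them. In protein-coding transcripts alone *ULK1* still led, but *ULK3* (2.01 and 0.588) and *ULK2* (1.97 and 2.33) had no common order in the libraries. *RB1CC1* gave 4.98 and 6.95 FPKM, a wider gap than that of *ATG13* or *ATG101*.

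The lipid kinase complex makes phosphatidylinositol 3-phosphate at the site of vesicle formation. Its scaffold gene *BECN1* had 26.1 and 27.5 FPKM, above the regulatory subunit *PIK3R4* at 12.9 and 16.8 and the catalytic subunit *PIK3C3* at 9.07 and 11.5. Both subunits were higher in replicate 2, and the lower *PIK3R4* value still exceeded both values of *PIK3C3*. In protein-coding transcripts alone *BECN1* (15.4 and 15.1) and *PIK3R4* (12.5 and 15.4) overlapped. ATG14 and UVRAG are alternative partners that direct the complex to early autophagosomes or to endosomes. *ATG14* (7.59 ± 0.152) was above *UVRAG* (2.76 ± 0.125), the lowest gene of the complex in each library.

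ATG2 proteins move lipid into the growing membrane, ATG9 proteins scramble it between leaflets, and WIPI proteins read the phosphoinositide mark. In each of these pairs 1 paralog led in both libraries. *ATG9A* had 22.1 and 21.9 FPKM while *ATG9B* had 0.659 and 0.170, and none of the *ATG9B* value lay in a transcript annotated as protein coding. *ATG2A* gave 8.74 and 8.17 against 4.25 and 5.05 for *ATG2B*. *WIPI2*, which recruits ATG16L1, had 25.1 and 25.6 FPKM and *WIPI1* 12.3 and 11.8.

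The conjugation enzymes join ATG12 to ATG5 and ATG8 proteins to lipid. *ATG3*, the enzyme that passes ATG8 to phosphatidylethanolamine, was highest of these 7 genes at 26.4 and 27.1 FPKM. *ATG7*, the activating enzyme for both reactions, had 5.74 and 5.10, and *ATG10*, which passes ATG12 to ATG5, had 4.52 and 3.95. In FPKM of all transcripts the enzymes for the ATG12 branch were thus at the low end. The genes of the conjugated proteins were *ATG5* at 10.5 and 12.5 and *ATG12* at 6.73 and 9.56, but in protein-coding transcripts alone *ATG12* had 2.64 and 7.08, below *ATG7* (5.25) and *ATG10* (4.11) in replicate 1. *ATG16L1*, which places the ATG12 and ATG5 conjugate on the membrane, gave 17.5 and 12.4 FPKM, above its paralog *ATG16L2* at 7.21 and 5.97. In protein-coding transcripts alone *ATG16L2* had 4.34 and 3.18. These were below *ATG7* (5.25 and 3.86) in each library and below *ATG10* (3.65) in replicate 2.

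ATG4 proteases trim ATG8 proteins before conjugation and release them afterwards. *ATG4B*, known as the most active of the family, had 42.6 and 44.7 FPKM, and *ATG4D*, *ATG4A* and *ATG4C* had means of 6.70, 3.59 and 3.28. In protein-coding transcripts alone *ATG4B* had 3.93 and 3.95 FPKM, close to *ATG4D* at 3.84 and 3.72. There *ATG4A* (2.63 and 1.18) was below *ATG4C* (3.38 and 3.17) in each library. Among the ATG8 genes, *MAP1LC3B* led at 63.5 and 63.6 FPKM and made up 38.1% and 40.3% of the FPKM of the 6 genes. *GABARAPL2* (41.7 and 40.7) and *GABARAP* (40.9 and 38.9) followed, with 25.0% to 25.9% and 24.5% to 24.7% of the family. *GABARAPL1* was lower and less even, at 20.4 and 14.3. The lead of *MAP1LC3B* was lost in protein-coding transcripts alone, where it had 32.4 and 34.4 FPKM, below *GABARAPL2* (mean 40.6) and *GABARAP* (40.4 and 37.8) in each library. *MAP1LC3A* (0.0158 and 0.0364 FPKM) and *MAP1LC3C* (0.160 and 0.0597) were close to 0, so nearly all LC3 message in these tables was listed under *MAP1LC3B*. Its near-identical copy *MAP1LC3B2* was listed at 4.46 and 4.40 FPKM, and reads of the copy and of *MAP1LC3B* cannot be told apart with certainty. The other 9 entries for copies or pseudogenes of members found by name were listed at 0.

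Cargo receptors bind ubiquitin or other signals and ATG8 proteins. *SQSTM1*, which encodes p62, had the highest mean of all 42 genes, 219.5 and 158 FPKM (189 ± 43.4), and it ranked at 232 among protein-coding genes. The other 3 receptors were far lower. *OPTN* gave 19.8 and 21.5, above *NBR1* at 14.2 and 15.2 and *CALCOCO2*, which encodes NDP52, at 11.3 and 15.4. *LAMP1* (157 and 158) and *LAMP2* (143 and 131) followed *SQSTM1*, and these 3 were the only members above 100 FPKM in each library. In replicate 2 *SQSTM1* and *LAMP1* were within 1 FPKM of each other, so the lead of *SQSTM1* came from replicate 1. The factor gene *TFE3* had 25.0 and 22.1 FPKM and its relative *TFEB* 1.62 and 1.80, a gap far wider than that between the libraries.

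The table lists a level for each transcript, and here the libraries were less alike than for whole genes. Of 102 member transcripts with a mean of at least 1 FPKM, 14 (13.7%) were more than 2-fold apart between libraries, against 13.8% of the 28667 such transcripts in the background. The transcript with the largest share differed between libraries in 9 of 39 members (23.1%), against 22.4% of expressed genes with at least 2 transcripts. The 9 were *ATG13*, *PIK3C3*, *ATG4A*, *ATG12*, *ATG16L1*, *WIPI2*, *GABARAPL1*, *OPTN* and *LAMP2*. These shares were near the background, so the spread of transcript values among the members was that of the tables at large.

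LAMP2 is made in isoforms with different membrane and cytoplasmic ends, and LAMP2A is known as the receptor of chaperone-mediated autophagy. LAMP2A gave 79.7 FPKM in replicate 1 and 48.1 in replicate 2 (63.9 ± 22.4), and LAMP2B 60.7 and 81.0 (70.9 ± 14.3). LAMP2A was thus the larger in replicate 1 with 55.6% of the gene and LAMP2B in replicate 2 with 62.0%, and the isoforms cannot be ordered from these libraries. LAMP2C was low in both, at 1.42 and 1.52 FPKM. In bases of coverage, which count the longer LAMP2B transcript (4030 nt, against 1867 nt for LAMP2A) more, LAMP2B led in both libraries with 61.5% and 77.9%.

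For *SQSTM1* most of the gap in FPKM between libraries lay in 1 short transcript. A transcript of 602 nt was listed at 48.4 FPKM in replicate 1 and at 0 in replicate 2, while the largest transcript, of 2253 nt, gave 134 and 126. Without the short transcript the gene had 171 and 158 FPKM. In bases of coverage the gene had 2.33 and 1.87 Mb, of which the short transcript held 0.161 and 0 Mb. In *GABARAPL1* a protein-coding transcript of 2294 nt had 9.05 and 0.374 FPKM, and 1 of 2321 nt, annotated for nonsense-mediated decay, had 6.14 and 7.47. The *ATG13* level was even, but a transcript of 4014 nt carried 68.3% and 29.8% of it and 1 of 4199 nt 0.296% and 37.5%. *TFE3* kept the same largest transcript, of 3415 nt, at 22.9 and 14.4 FPKM, while 1 of 3279 nt annotated for nonsense-mediated decay had 1.21 and 7.16.

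**Figure D2:**
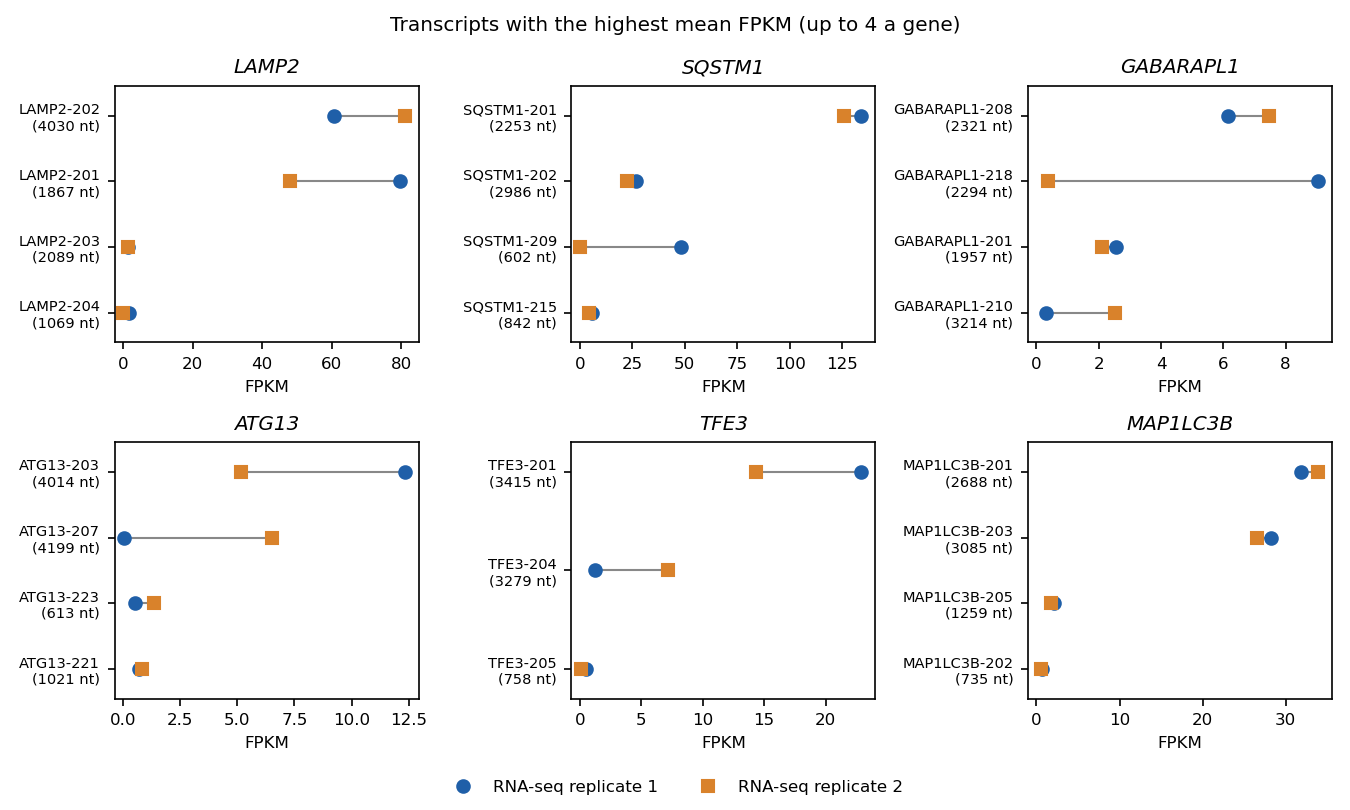
FPKM of the transcripts with the highest mean, up to 4 per gene, in *LAMP2*, *SQSTM1*, *GABARAPL1*, *ATG13*, *TFE3* and *MAP1LC3B*. Circles are RNA-seq replicate 1 and squares replicate 2, joined by a line for each transcript. LAMP2A has 1867 nt, LAMP2B 4030 nt and LAMP2C 2089 nt, and the *SQSTM1* transcript of 602 nt lies at 48.4 and 0 FPKM.

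Several members carried much of their FPKM in transcripts that GENCODE 44 does not annotate as protein coding. The median share outside protein-coding transcripts was 12.4% and 15.1% for expressed members, and 10.8% and 11.0% for all expressed protein-coding genes. It exceeded 50% in both libraries for 3 members, *ATG4B*, *ULK3* and *PIK3C3* (7.69%), against 10.4% of expressed genes. For *ATG4B* the share was 90.8% and 91.2%. The largest *ATG4B* transcript, of 1566 nt at 19.4 and 15.5 FPKM, has the annotation nonsense-mediated decay, and retained introns made up 41.7% and 54.0%. In protein-coding transcripts alone *ATG4B* had a mean of 3.94 FPKM in place of 43.6, close to the 3.78 of *ATG4D*. This value turns on the type given to its largest transcript, and types were taken from GENCODE 44 while the tables use GENCODE 27, where they may differ. *ULK3* had 70.5% and 92.5% outside, with 59.1% and 80.2% in retained introns. *PIK3C3* had 60.8% and 58.1%, including a transcript not matched to GENCODE 44. *MAP1LC3B* was near an even split, with 31.8 and 33.9 FPKM in its largest protein-coding transcript and 28.2 and 26.5 in a transcript annotated for nonsense-mediated decay. *GABARAP*, *GABARAPL2*, *NBR1*, *SQSTM1*, *LAMP1* and *LAMP2* had under 4% outside in both libraries.

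**Figure D3:**
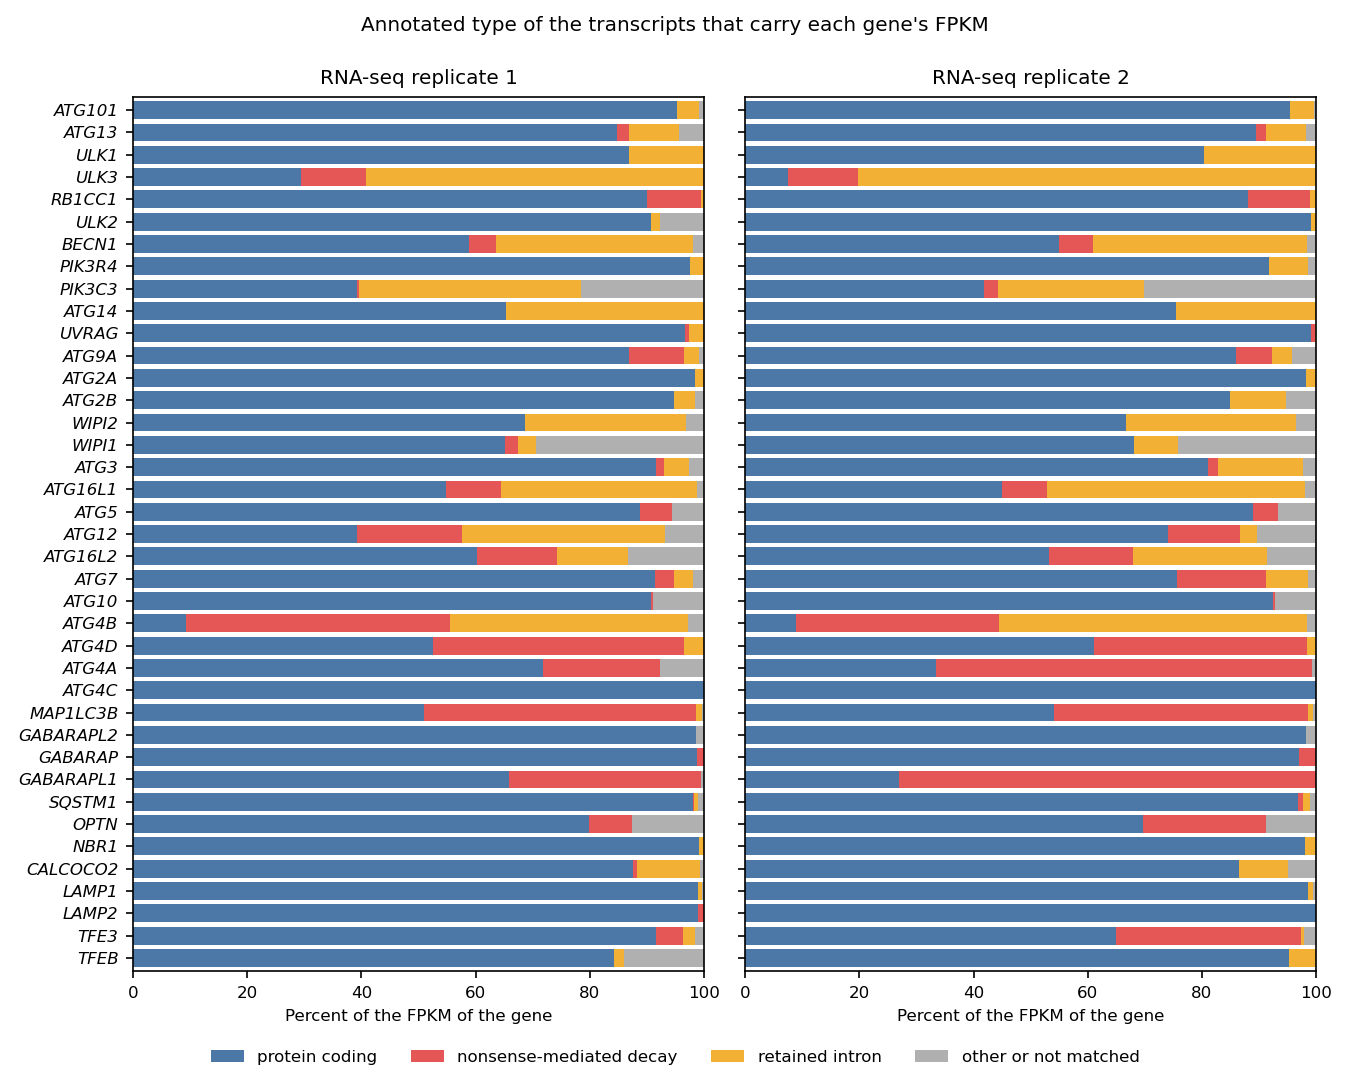
Percent of the FPKM of each of the 39 expressed members by the annotated type of its transcripts, in each RNA-seq library, with members grouped by role. *ATG4B*, *ULK3* and *PIK3C3* have under 50% in protein-coding transcripts in both libraries, and *LAMP1* has 98.9% and 98.6%.

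Some members overlap other genes, and whether the libraries keep strand is not given in the sources used here. In 17 of the 42 (40.5%), another gene with a mean of at least 1 FPKM overlaps the member, against 26.0% of protein-coding genes. Among expressed genes the shares were 43.6% and 31.9%. The most abundant of these neighbours were *RPS23* across *ATG10* (144 and 152 FPKM), *MGAT4B* across *SQSTM1* (63.1 and 59.8) and *PSME3* across *BECN1* (40.3 and 39.7), all on the opposite strand and chosen after their values were seen. What they add to the member values was not tested.

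HIF1α peaks were then sought at the start sites of these genes on GRCh37, the build of the peak lists. A promoter peak is one that reaches within 1 kb of any annotated start site. ChIP replicate 1, with 1689 peaks, had promoter peaks at 6 of the 42 members, *ULK3*, *BECN1*, *PIK3C3*, *ATG3*, *ATG9A* and *ATG10* (14.3%), against 5.49% of protein-coding genes. Among expressed genes the shares were 15.4% (6 of 39) and 8.60%. ChIP replicate 2, with 16953 peaks, had promoter peaks at 9 members, *ULK1*, *ULK3*, *ATG13*, *BECN1*, *ATG4B*, *ATG9A*, *GABARAP*, *GABARAPL1* and *LAMP1* (21.4%), against 14.0% of protein-coding genes, and among expressed genes the shares were 23.1% and 20.0%. Both lists had a promoter peak at *ULK3*, *BECN1* and *ATG9A* (7.14%, against 1.79% of protein-coding genes and, among expressed genes, 7.69% against 2.87%). Expressed members have more annotated start sites, with a median of 10 against 7, and counts at the first start site alone are given below.

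The 6 peaks of replicate 1 were 234 to 443 bp wide and 5 of them lay across a start site. HIF1 binds DNA at the core ACGTG or GCGTG, and all 6 peaks held a match on either strand, against 89.3% of the 1661 replicate 1 peaks on chromosomes 1 to 22, X and Y. The match nearest the centre of each peak is shown because it is where the peak and the known core meet. Each sequence is from GRCh37 and reads along the strand of the gene, with every ACGTG or GCGTG of either strand (seen as CACGT or CACGC on the other) in capitals. Matches in annotated exons are shown with 12 bases on either side, and the others with up to 40 bases that no exon covers.
ULK3, exon, minus strand, chr15:75135362-75135390: cctgggcagcggCACGTacgccacggtgt
BECN1, exon of PSME3, minus strand, chr17:40985360-40985388: gcgaggctgtgCACGTGcgctgcgcagcc
PIK3C3, intron, plus strand, chr18:39535410-39535456: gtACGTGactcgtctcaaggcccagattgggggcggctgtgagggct
ATG3, exon, minus strand, chr3:112280816-112280844: cggcccctttctCACGTCACGTGccggga
ATG9A, exon of ANKZF1, minus strand, chr2:220095140-220095168: aaggagccctgtCACGTttcacacgaaac
ATG10, upstream of the gene, plus strand, chr5:81267757-81267841: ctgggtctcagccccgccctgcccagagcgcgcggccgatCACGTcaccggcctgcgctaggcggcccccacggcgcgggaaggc

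The peak at *ATG3* (chr3:112280712-112280945) held 6 matches, the nearest 2 bp from its centre, some of them overlapping because CACGTG counts on both strands. It covers the start of the largest transcript, and transcripts that begin within 1 kb of it carried 98.8% of the *ATG3* FPKM in both libraries. The same holds for *ATG10* (chr5:81267622-81267964), with 89.6% and 91.5%, and *ULK3* (chr15:75135257-75135598), with 95.8% and 95.5%. At *PIK3C3* (chr18:39535256-39535540) the share was 28.1% and 35.3%, while a further 20.0% and 28.2% lay in a transcript not matched to GENCODE 44 and so without a start site here. The *ATG3* peak also covers start sites of *SLC35A5*, a gene on the opposite strand at 3.44 and 3.21 FPKM that was chosen after its values were seen, and the binding cannot be assigned to either gene.

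*ATG9A* was the only member with overlapping promoter peaks, which 1.48% of expressed genes had. The peaks, chr2:220094954-220095396 in replicate 1 and chr2:220095035-220095285 in replicate 2, lie 515 and 596 bp upstream of its first start site, over exon bases of *ANKZF1*, the divergent neighbour at 25.7 and 24.3 FPKM that was chosen after its values were seen. Transcripts starting within 1 kb of them carried 93.3% and 95.3% of the *ATG9A* level of 22.1 and 21.9 FPKM. The peaks cannot assign the binding to *ATG9A* or to *ANKZF1*.

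*BECN1* had a peak in each list, and both stood away from the start of its largest transcript. The peaks, chr17:40985203-40985457 and chr17:40985459-40985704, have 1 base between them and lie at the first start site of *BECN1* and at start sites of *PSME3*, a neighbour on the opposite strand. Transcripts that begin there carried 0.0719 and 0.0955 FPKM, or 0.275% and 0.348% of the gene. The start of its largest transcript, at 5.05 and 6.55 FPKM, is 8903 bp from the replicate 1 peak. *PSME3*, a proteasome activator gene chosen after its values were seen, had 40.3 and 39.7 FPKM. At *ULK3* the peaks of the replicates were 1025 bases apart, and the replicate 2 peak held no core.

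Most replicate 2 peaks met a start site inside the gene. Of the 11 peaks at the 9 members, 8 lay wholly in annotated exons, as did 3 of the 6 member peaks of replicate 1. Over the whole lists, 84.5% of peak bases were exonic in replicate 2 and 32.9% in replicate 1. Only 4 of the 11 were within 1 kb of the first start site, those at *ULK3*, *BECN1*, *ATG9A* and *GABARAPL1*. The *LAMP1* peak lay 25033 bp from the first start site of *LAMP1*, at a transcript with 0.374% and 0.571% of its FPKM, and the *ULK1* peak 23383 bp from that of *ULK1*. In *ATG13* and *ATG4B* the peaks were at least 19392 bp from the start of the largest transcript. *GABARAPL1* had a peak, chr12:10365526-10365781, across 1 start site and 30 bp from that of its highest transcript, and all of its FPKM began within 1 kb. It held no match to ACGTG or GCGTG. In all, 7 of the 11 peaks held a match, against 48.8% of 16648 replicate 2 peaks on the same chromosomes.

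Counted by the annotated starts of transcripts that carried most of the FPKM, fewer members had a promoter peak. Transcription starts themselves were not measured. With transcripts that carried over 50% of the FPKM of the gene, a measure chosen after seeing the data, the count was 4 of 39 in replicate 1 (*ULK3*, *ATG3*, *ATG9A* and *ATG10*, 10.3%) against 6.81% of expressed genes. In replicate 2 it was 2 of 39 (*ATG9A* and *GABARAPL1*, 5.13%) against 7.97%. At the first start site of the gene, also chosen after seeing the data, replicate 1 kept its 6 members against 6.80% and replicate 2 had 4 (10.3%) against 7.56%. In replicate 2 the members were therefore above or below the background share depending on the start sites counted.

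**Figure D4:**
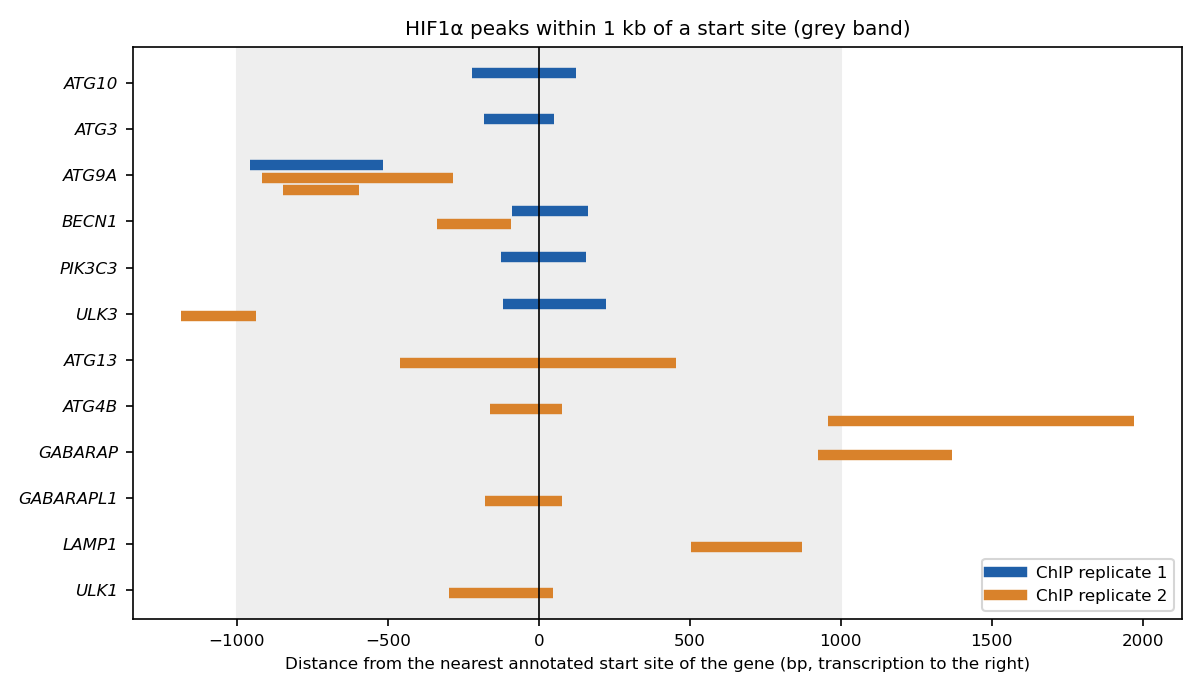
HIF1α peaks within 1 kb of a member's start site, drawn by distance from the nearest annotated start site, with transcription to the right. Blue bars are ChIP replicate 1 and orange bars replicate 2, and the grey band is the window of 1 kb. *ATG9A* has 2 replicate 2 peaks, of which 1 overlaps the replicate 1 peak and the other is at a start site inside the gene.

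Farther from start sites few further members were reached in replicate 1. Within 10 kb it had 8 of 39 expressed members (20.5%) against 11.8% of expressed genes, the added 2 being *ATG14* and *ATG2A*. The *ATG14* peak, chr14:55865475-55865822, lay in an intron with no exon base, 7455 bp from a start site, and held 1 core. Peaks of both replicates overlapped at 7379 and 7412 bp from *ATG2A*, but these lie at the promoter of *PPP2R5B*, chosen after its values were seen. Replicate 2 had 23 of 39 within 10 kb (59.0%) against 50.3%. In that list 26 members had a peak inside the gene (40 peaks), of which 37 were wholly exonic, and 53.3% of expressed genes had one.

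**Figure D5:**
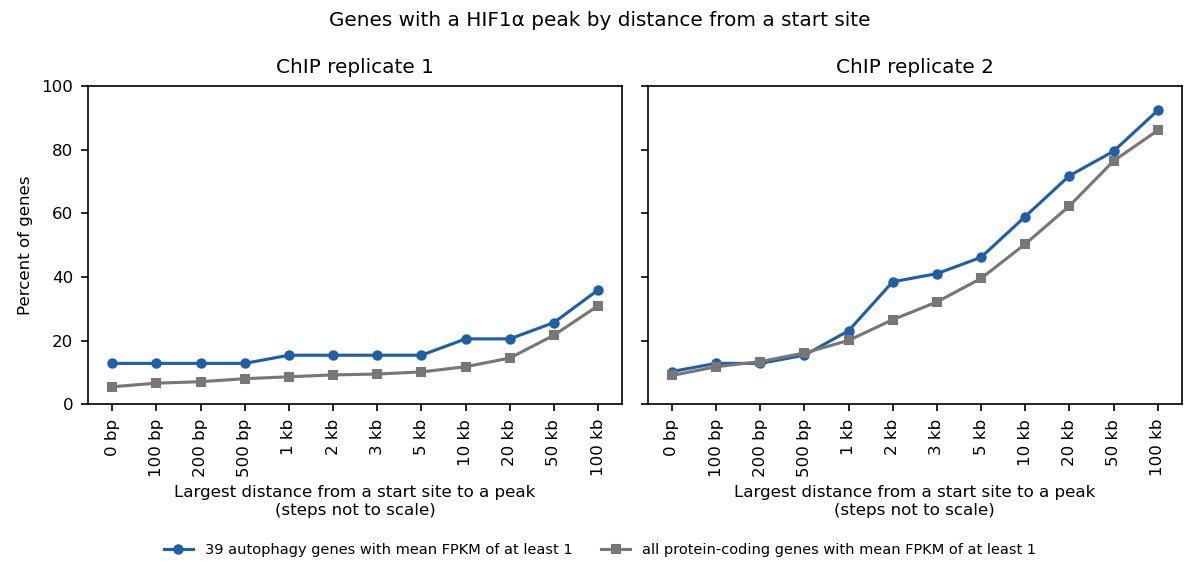
Percent of genes with a HIF1α peak within each distance of any annotated start site, for the 39 expressed autophagy genes (circles) and all expressed protein-coding genes (squares), in each ChIP replicate. In replicate 1 the autophagy genes lie at 15.4% against 8.60% at 1 kb, and in replicate 2 at 23.1% against 20.0%.

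TFEB and TFE3 are known to bind a motif of lysosomal and autophagy genes that centres on CACGTG, a sequence that holds the HIF core ACGTG on each strand. In RefSeq promoters from 250 bases before to 50 after the start (GRCh38.p14), 37 of the 42 members matched by symbol, and those not matched were *ATG4D*, *LAMP2*, *MAP1LC3A*, *RB1CC1* and *UVRAG*. ACGTG or GCGTG was in 24 of the 37 (64.9%), against 56.3% of 15232 protein-coding promoters. Among expressed genes it was in 24 of 35 members (68.6%), against 64.6%. CACGTG was in 4 (10.8%), *LAMP1*, *ATG3*, *ATG14* and *ULK3*, against 8.88%, and among expressed genes in 11.4% against 10.7%. The longer TCACGTGA was in 2, *LAMP1* and *ATG3* (5.41%), against 1.48%, and among expressed genes in 5.71% against 2.11%. The *SQSTM1* window held neither ACGTG nor GCGTG.

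*LAMP1* stood out by number, with 6 CACGTG in its 300 bases. No other protein-coding promoter of the 15232 had as many, and 0.164% had at least 3. The 200 bases before its start are printed because they hold 5 of the 6, from the plus strand of GRCh38.p14, chr13:113297039-113297238, outside annotated exons, with CACGTG in capitals. *ATG3* had 2, and both are also letter for letter in its replicate 1 peak. They are shown with 12 bases on either side from the minus strand of the same build. The motif at chr3:112561963-112561992 is upstream of the RefSeq start, and that at chr3:112561940-112561969 is across the first bases. With the start sites annotated on GRCh37, bases of the first stretch are labelled exon above.
LAMP1 promoter: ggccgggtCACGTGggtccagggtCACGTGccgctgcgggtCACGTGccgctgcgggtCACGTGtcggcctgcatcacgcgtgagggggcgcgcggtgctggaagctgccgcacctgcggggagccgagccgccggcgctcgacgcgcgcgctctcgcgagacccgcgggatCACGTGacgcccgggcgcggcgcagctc
ATG3 first: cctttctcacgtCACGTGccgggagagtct
ATG3 second: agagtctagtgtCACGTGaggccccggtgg

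Replicate 1 had no promoter peak at *LAMP1*, and the replicate 2 peak was at the far end of the gene. *ATG14* had 1 CACGTG, at position -21 from its start, and *ULK3* had 1 at -172, outside its replicate 1 peak. Matches of so short a motif are a description of the sequence, and binding of TFEB or TFE3 was not measured here.

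Other genes of the pathway had levels like those of the members. Of 34 further autophagy genes, 32 reached 1 FPKM in both libraries, with a median of 12.2 FPKM against 12.7 for the members. *RAB7A*, which drives fusion with the lysosome, was highest at 132 and 139 FPKM, and *WDR45B*, a relative of the WIPI genes, had 90.7 and 84.8. *WDR45B* had a promoter peak in both replicates, *RAB7A* in replicate 1, and *SH3GLB1*, *VPS39*, *TAX1BP1*, *RETREG1* and *CCPG1* in replicate 2. The shares were 5.88% in replicate 1 and 17.6% in replicate 2, against 14.3% and 21.4% of the members and 5.49% and 14.0% of protein-coding genes. Both were below the 8.60% and 20.0% of expressed genes. At the first start site alone *WDR45B* (both replicates) and *SH3GLB1* (replicate 2) had a peak, and the shares of expressed genes there were 6.80% and 7.56%.

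Lysosomal genes were more abundant than the members as a group. Of 30, 29 reached 1 FPKM in both libraries with a median of 41.8. *PSAP* (814 and 764), *CTSZ* (556 and 525), *CD63* (355 and 330) and *CTSD* (230 and 168) exceeded *SQSTM1* and *LAMP1* in each library. Promoter peaks were at 3 in replicate 1, the protease gene *CTSA*, the hexosaminidase gene *HEXA* and the proton pump gene *ATP6V0D1* (10.0%), and *CTSA* and *HEXA* had them in both replicates. Replicate 2 had 10 of 30 (33.3%), and the shares of all expressed genes were 8.60% and 20.0%. At the first start site alone *CTSA* and *HEXA* had a peak, in both replicates, and the shares of expressed genes there were 6.80% and 7.56%.

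Among 9 mitophagy receptor genes *BNIP3* was highest at 280 and 297 FPKM, above *SQSTM1* in each library. *BNIP3L* had 63.5 and 70.0 FPKM, like *MAP1LC3B*, which encodes a protein that both receptors bind. These 2 genes had promoter peaks in both replicates, and *FKBP8* and *NLRX1* in replicate 2. The shares were 22.2% and 44.4%, against 8.60% and 20.0% of expressed genes. At the first start site alone only *BNIP3* and *BNIP3L* had a peak, in both replicates, and the shares of expressed genes there were 6.80% and 7.56%. Of the members, only *ATG9A* had overlapping peaks of both replicates beside start sites that carried most of its FPKM.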

How the data were processed

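RNA-seq and HIF1α ChIP-seq of HK2 cells treated with FG-4592 were used, 2 libraries each, grouped by the sample labels. The authors mapped RNA reads with HISAT2 and estimated levels with StringTie (1.3.3 in the file header) on GENCODE 27, and their deposited tables list each transcript's coverage, FPKM and TPM, with no counts of reads. For the ChIP-seq, the authors aligned reads to hg19 with Bowtie2 and called peaks with MACS2 for each replicate, and the deposited lists hold positions only, so their depth is unknown. The study's methods name hg19 for the RNA reads too, but the RNA tables have GRCh38 coordinates (*LAMP2* begins at 120427827, against 119560003 on GRCh37), so genes and transcripts were joined to GENCODE 44 on GRCh37 by Ensembl identifier, which matched 498 of 510 member transcripts. No position was converted.

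FPKM was summed per gene. A promoter peak overlapped a window of 1 kb on either side of any start site by at least 1 bp. With a single treatment no contrast exists, and no test was made: counts at the main settings stand beside the same share over protein-coding genes. LAMP2 isoforms were taken by transcript identifier. All members may be named, and of other lists genes with a promoter peak or among the highest or lowest 3. The members and lists were chosen with earlier results of these data known. *PECAM1* was not matched. A planned comparison of protein sequences was not made. Functions were tested on simulated data. Scripts ran in Python 3.11.15 (pandas 2.3.3, numpy 2.4.6, pysam 0.24.0, matplotlib 3.10.9).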

Additional observations from a re-analysis of the deposited data

How the results depend on the processing

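The count of 39 members at 1 FPKM was the same in TPM, by the largest transcript alone, at a minimum of 0.5 FPKM and with either library left out, and it was 31 at a minimum of 5 FPKM. The share of protein-coding genes was not counted at these settings. No expressed member was over 2-fold apart with a pseudocount of 0.1, in TPM or in bases of coverage. Without the filter the count was also 0, but values under 1 FPKM cannot be over 2-fold apart with a pseudocount of 1. The plain ratios of replicate 1 to replicate 2 were 3.87 for *ATG9B*, 2.69 for *MAP1LC3C* and 0.434 for *MAP1LC3A*. Members over 2-fold apart were not counted in protein-coding transcripts alone, where *GABARAPL1* had 13.4 and 3.85 FPKM and *ATG12* 2.64 and 7.08. The median percentile of 73.6 became 70.3 with protein-coding transcripts only, where 25 of 42 single levels also moved by more than their SD, and ran from 72.2 to 73.2 with 1 library left out. The 6 members with a promoter peak in ChIP replicate 1 became 0 with peaks free of exon bases. Replicate 2 and both replicates also gave 0. Over the whole lists 45.8% and 18.0% of peaks had no exon base, and the share of expressed genes was not counted. A peak across a start site holds exon bases by construction, as did 5 of the 6 in replicate 1. The 9 of replicate 2 became 16 with a window of 3 kb, where the shares were 41.0% of expressed members and 32.1% of expressed genes. The count was 4 with start sites of protein-coding transcripts and 2 with the start of the highest transcript. No share of expressed genes was counted for these settings. It was 4 (10.3% against 7.56%) with the first start site and 2 (5.13% against 7.97%) with start sites carrying over 50% of the FPKM. The last 2 settings were chosen after seeing the data. The 3 with peaks in both replicates became 1 with a window of 500 bp and 1 with the start of the highest transcript. Start sites carrying over 50% of the FPKM also gave 1, and no share of expressed genes was counted for these settings. The count was 1 with overlapping peaks (also chosen after seeing the data), which 1.48% of expressed genes had. With 1 replicate left out any peak in the other gave 6 to 9. Members with ACGTG or GCGTG rose from 24 of 37 RefSeq promoters to 42 of 42 members, and those with CACGTG from 4 to 17, in 1 kb on either side of the first start site on GRCh37, where 98.0% and 32.1% of expressed genes had them. For the same 37 members the wider window gave 37 and 16. Members whose largest transcript differed numbered 9, 6 in bases of coverage and 7 with transcripts of at least 1000 nt, both chosen after seeing the data. For neither of these was the share of expressed genes counted. The cause of these changes was not tested. No paired analysis was possible because no groups were compared: the replicate numbers are shared between assays only. With 2 libraries, an SD is imprecise, and the peak lists give no height by which weak peaks could be set aside.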
